A study of Sus scrofa with 2 samples.

Results

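The 8 carriers described here are membrane proteins of the proximal tubule, the first stretch of the nephron after the glomerulus. They are SLC5A2 and SLC2A2 for glucose, SLC34A1 for phosphate, SLC4A4 for bicarbonate, SLC5A12 and SLC5A8 for lactate and related monocarboxylates, SLC13A3 for dicarboxylates and SLC7A8 for neutral amino acids. They were taken by symbol, each from its single row among the 31908 gene rows of the count matrices, and all 8 were detected in both libraries.

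The study measured RNA in single nuclei of renal cortex from pig kidneys (Sus scrofa) obtained from a slaughterhouse, before and after perfusion. There was 1 library of each kind. The kidneys were flushed and kept cold. The unperfused cortex was collected before perfusion, and the perfused cortex after 2 h of ex vivo machine perfusion at 37 °C and 100 mmHg, a pressure set to raise glomerular filtration. The sources used here do not state age, sex or breed, nor whether both pieces of cortex came from the same animal. Each condition therefore had 1 sample and no replicate, so no test between conditions was possible. Animal, kidney, tissue handling, library and perfusion cannot be told apart. All intervals are 95% intervals that cover counting error only, exact Poisson for a level, exact binomial for a share and exact conditional binomial for a ratio.

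The unperfused library held 7179 barcodes and 34415254 unique molecular identifiers (UMIs, each standing for 1 captured transcript), and the perfused library 6205 barcodes and 35525592 UMIs. After filtering, 6389 and 5421 nuclei remained, with medians of 3755 and 4383 UMIs. The libraries shared 14 barcodes, of which 8 were among the nuclei kept. The nuclei formed 21 clusters, 19 of which took the name of 1 of 13 cell classes by their markers. The 8 carriers and the other carriers and partners compared with them took no part in making clusters, apart from the genes of endocytosis, and none of the 8 was a marker.

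Most of the solute that the glomerulus filters is taken back in the proximal tubule. Sodium gradients kept up by the basolateral sodium pump drive carriers of the brush border, such as the glucose cotransporter SGLT2, and other carriers in the basolateral membrane pass the solute on to the blood. The makeup of carriers is known to differ along the tubule: in rodents the low-affinity lactate carrier SMCT2 is found from the early part on, and the high-affinity SMCT1 mainly in the late part.

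Nuclei of the proximal tubule class (PT) numbered 1848 (28.9% of the nuclei) in unperfused and 1377 (25.4%) in perfused cortex. PT comprised cluster 0 (1135 unperfused and 766 perfused nuclei), led by SLC7A8, STRA6 and SLC5A12, cluster 4 (640 and 436 nuclei), led by ADCY8, PGC and SLC22A2, and cluster 11 (73 and 175 nuclei), led by POU2F3, SLC5A8 and BRINP1. Of the 14 PT markers in the files, by which the class was named, 11 in cluster 0, 10 in cluster 4 and 6 in cluster 11 had a log2 fold over 1 against all other nuclei. CUBN, the cubilin receptor of protein uptake, was among them in all 3 clusters. LRP2, the megalin receptor, was among them in clusters 0 and 4 but not in cluster 11, where it stood at 2692 and 2985 CPM (UMIs of the gene per 1000000 UMIs of the nuclei). SLC7A8, SLC5A12 and SLC5A8 stood among the leading genes of clusters they had not helped to make. The carriers were chosen with earlier results of these data known, so this is a description. Cluster 11 made up 3.95% of the unperfused PT nuclei (interval 3.11 to 4.94%) and 12.7% of the perfused (10.99 to 14.6%). A further cluster 13 (127 and 108 nuclei), led by AGMO, RIMS2 and MEGF6, took the name of injured proximal tubule (PT_INJ), a name that rests on 3 of 11 markers, ITGB8, DCDC2 and SPP1.

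All 8 carriers reached their highest level among the 13 named classes in PT, in both libraries. Of 15320 genes, 6.96% did so, though the 8 carriers had been chosen with earlier results of these data known. With doublets kept or with free RNA subtracted, 7 of the 8 did. Levels are UMIs of the gene per 1000000 UMIs of the class (CPM) and are compared for 1 gene between groups of nuclei, since gene lengths were not used. PT held 74.6% to 94.7% of the UMIs of each carrier in the unperfused library and 79.2% to 94.96% in the perfused, with SLC5A2 at the bottom of both ranges. The PT interval lay clear of the next class for every carrier except SLC5A2 in the perfused library, where PT and PT_INJ did not differ beyond counting error.

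**Figure D1:**
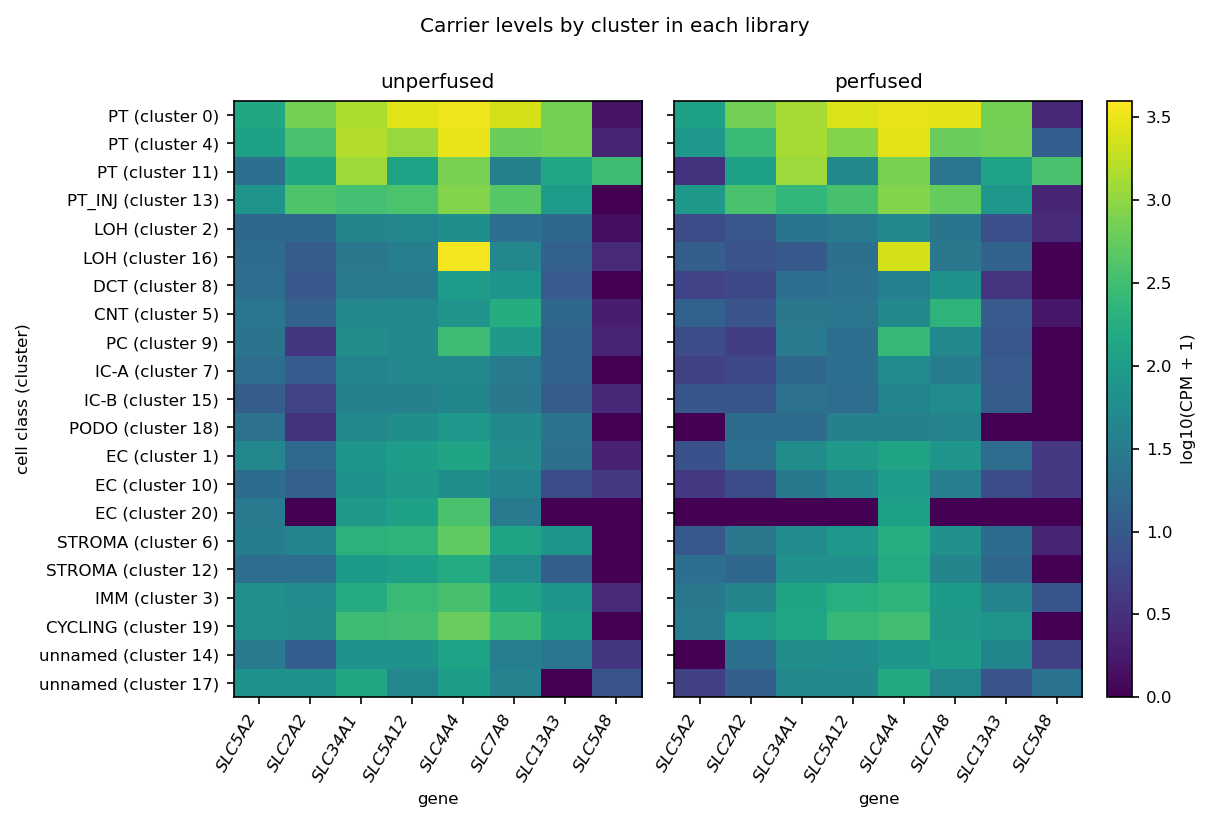
Level of the 8 carriers in each cluster, as log10(CPM + 1), in the unperfused (left) and perfused (right) library. Rows are clusters with their cell class and columns are genes. The carriers other than SLC5A8 are high in PT clusters 0 and 4, and cluster 13 stands below cluster 0 for each of them. Cluster 11 is high in SLC34A1 and SLC5A8 but low in SLC5A2 and SLC7A8. SLC4A4 is also high in cluster 16 of the loop of Henle.

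SLC5A2 (SGLT2, ENSSSCG00000024058) takes up most of the filtered glucose from the lumen together with sodium and is the target of the gliflozin drugs. Its level in PT was 127 CPM (interval 120 to 134, 1337 UMIs) unperfused and 91.2 CPM (85.2 to 97.4, 868 UMIs) perfused. Over the PT clusters 0, 4 and 11 the unperfused levels were 139, 111 and 19.8 CPM and the perfused levels 114, 82.0 and 2.33 CPM. Clusters 0 and 4 thus carried SLC5A2 and cluster 11 had few UMIs of it, 9 unperfused and 3 perfused. PT_INJ stood at 73.1 and 88.5 CPM.

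SLC5A2 was also the carrier whose UMIs were spread most widely over other classes, and this differed between the libraries. In endothelial nuclei (EC), which are not a known site of glucose reabsorption, it stood at 41.8 CPM (34.4 to 50.3, 111 UMIs) unperfused and 6.34 CPM (3.38 to 10.8, 13 UMIs) perfused. That was 33.0% and 6.96% of the PT level. For the 6 carriers other than SLC5A2 and SLC5A8, the EC level was between 2.62% and 5.28% of the PT level unperfused and between 2.64% and 4.54% perfused. Thinned to 2000 UMIs per nucleus, 7.28% of 563 unperfused and 0.963% of 519 perfused EC nuclei had an SLC5A2 UMI, against 22.5% and 16.6% of PT nuclei; 739 and 300 shallower EC nuclei were left out of this. Before thinning, 8.14% and 1.34% of the EC nuclei had one, at medians of 1879.5 and 2219 UMIs per nucleus. The unperfused level was above the perfused one in every class but PT_INJ, while the intervals overlapped in several of the small classes. This direction was not particular to SLC5A2: SLC34A1, SLC5A12 and SLC13A3 were lower in the perfused library in every named class. Intervals overlapped in several classes for these carriers too, as for SLC13A3 in EC with 18.1 and 16.1 CPM. The share of all genes with this direction in every class was not counted. In EC these carriers differed less than SLC5A2, as for SLC34A1 with 77.2 and 54.2 CPM.

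**Figure D2:**
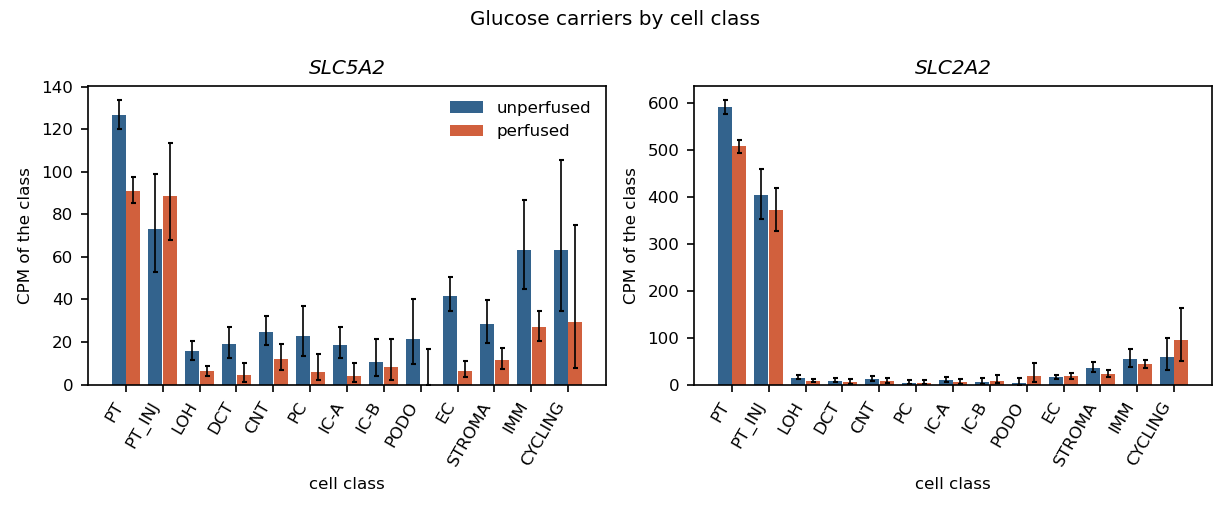
Levels of SLC5A2 (left) and SLC2A2 (right) in the 13 named classes, in CPM of the class, for the unperfused (blue) and perfused (orange) library; bars are levels and error bars are 95% Poisson intervals. SLC5A2 outside PT and PT_INJ is higher in the unperfused library, as in EC with 41.8 against 6.34 CPM, whereas SLC2A2 in EC stood at 15.4 and 17.6 CPM.

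SLC2A2 (GLUT2, ENSSSCG00000020927) lets glucose leave the cell on the blood side. Its PT level was 590 CPM unperfused and 507 CPM perfused. In clusters 0, 4 and 11 it stood at 704, 371 and 143 CPM unperfused and at 679, 278 and 113 CPM perfused, a stepwise order whose neighbours did not overlap. PT_INJ kept a higher level than cluster 11, with 402 and 371 CPM. The 2 glucose carriers thus shared the order of clusters 0, 4 and 11. The ratio of cluster 0 to cluster 11 was 5.75 for SLC2A2 and 18.6 for SLC5A2 with the libraries pooled, the latter from 12 UMIs in cluster 11.

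SLC34A1 (NaPi-IIa, ENSSSCG00000037535) is the brush-border phosphate cotransporter that parathyroid hormone and FGF23 act on. It was the only one of the 8 carriers with a range under 4-fold over the PT clusters. Clusters 0, 4 and 11 stood at 1446, 1545 and 1204 CPM unperfused and at 1327, 1330 and 1185 CPM perfused, a pooled range of 1.22-fold. In the perfused library clusters 0 and 4 did not differ beyond counting error. PT_INJ was far below all 3, with 334 and 238 CPM. Cluster 11 therefore carried phosphate cotransporter at nearly the level of clusters 0 and 4, while it held few UMIs of SLC5A2 and less SLC2A2 than they did. Of its nuclei, 93.2% unperfused and 96.0% perfused had an SLC34A1 UMI, with medians of 7 and 8 UMIs per nucleus.

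SLC4A4 (NBCe1, ENSSSCG00000008943) returns bicarbonate to the blood with sodium, and its loss causes proximal renal tubular acidosis. Clusters 0, 4 and 11 stood at 3226, 3028 and 716 CPM unperfused and at 3054, 2865 and 738 CPM perfused. Cluster 11 and PT_INJ, with 865 and 863 CPM, were thus alike in holding less. SLC13A3 (NaDC3, ENSSSCG00000035906), a basolateral sodium-dicarboxylate carrier for succinate, citrate and alpha-ketoglutarate, had the same shape. It stood at 700, 694 and 134 CPM unperfused and at 692, 672 and 117 CPM perfused. Clusters 0 and 4 overlapped in both libraries for SLC13A3, and PT_INJ stood at 92.3 and 81.5 CPM.

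SLC5A12 (SMCT2, ENSSSCG00000013338) and SLC5A8 (SMCT1, ENSSSCG00000000871) both take up lactate with sodium, with low and high affinity, and they had opposite orders. SLC5A12 stood at 2659, 1093 and 123 CPM in clusters 0, 4 and 11 of the unperfused library and at 2520, 841 and 51.3 CPM in the perfused library. SLC5A8 stood at 0.552, 1.40 and 301 CPM unperfused and at 1.51, 10.96 and 371 CPM perfused. Of the SLC5A8 UMIs in PT, 137 of 145 and 478 of 512 were in cluster 11, and 54.8% and 64.6% of its nuclei had at least 1. The largest count in a single nucleus was 24 and 22. In EC, 0.307% and 0.733% of nuclei had an SLC5A8 UMI.

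SLC7A8 (LAT2, ENSSSCG00000002032) is the light chain of a basolateral exchanger of neutral amino acids. Among the 8 carriers it had the widest pooled range after SLC5A8, 90.4-fold. Clusters 0, 4 and 11 stood at 2321, 625 and 37.4 CPM unperfused and at 2808, 600 and 24.9 CPM perfused. Cluster 11, with 17 and 32 UMIs, was at the level of EC (55.0 and 67.8 CPM) or below. PT_INJ stood at 460 and 569 CPM.

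Over the PT clusters 7 of the 8 carriers had a pooled range of more than 4-fold, against 7.81% of the 10629 genes with at least 100 UMIs in PT. The carriers were chosen with earlier results of these data known, so this count is a description too. The order of the 3 clusters by level was the same in both libraries for all 8, and the share of all genes with this was not counted. Parts of this order lay within counting error. Clusters 0 and 4 overlapped for SLC34A1 in the perfused library and for SLC13A3 in both, and for SLC5A8 they had 4 UMIs each in the unperfused library. For 6 carriers cluster 0 was highest, for SLC34A1 cluster 4 and for SLC5A8 cluster 11. Of all genes, 34.0%, 25.8% and 40.2% were highest in clusters 0, 4 and 11.

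**Figure D3:**
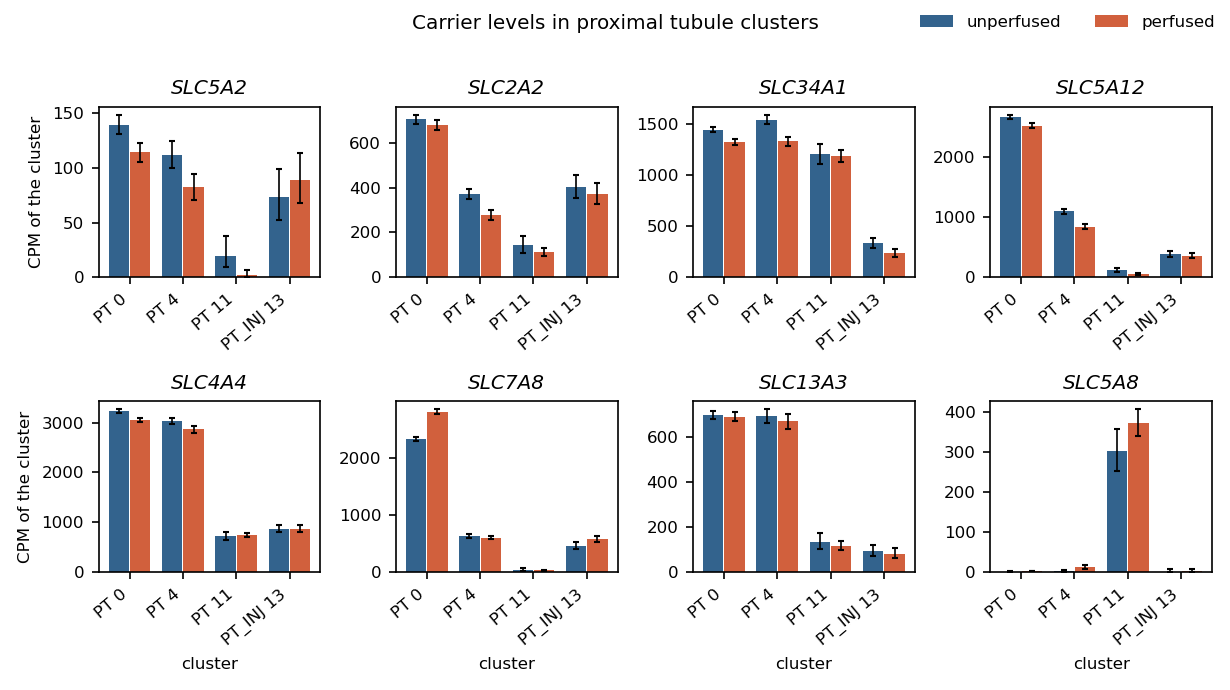
Levels of the 8 carriers in PT clusters 0, 4 and 11 and in PT_INJ cluster 13, in CPM of the cluster with 95% Poisson intervals, for the unperfused (blue) and perfused (orange) library; each panel has its own scale from 0. SLC34A1 is nearly level over the 3 PT clusters, with a range of 1.22-fold, SLC7A8 and SLC5A12 are highest in cluster 0, and SLC5A8 stands almost wholly in cluster 11.

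In single nuclei thinned to 2000 UMIs, the median number of carriers with a UMI was 5 of 8 in cluster 0, 4 in cluster 4 and 2 in cluster 11, in both libraries. At least 4 carriers were seen in 95.8% and 96.9% of the cluster 0 nuclei, in 76.4% and 66.4% of the cluster 4 nuclei and in 16.9% and 11.6% of the cluster 11 nuclei. Members of the same nucleus share its depth, so these counts describe nuclei and not conditions. The lactate carriers were seldom seen together. Among PT nuclei with an SLC5A8 UMI, 1 of 21 unperfused (4.76%, interval 0.120 to 23.8%) and 9 of 82 perfused (10.98%, 5.14 to 19.8%) had an SLC5A12 UMI. Among PT nuclei without an SLC5A8 UMI the shares were 86.9% of 1734 and 78.6% of 1192. At 4000 UMIs per nucleus the shares were 15.6% and 20% with an SLC5A8 UMI, against 94.7% and 87.7% without. SLC34A1 showed no such gap, with 85.7% and 79.3% of the nuclei with an SLC5A8 UMI and 92.4% and 90.9% of those without. At 2000 UMIs, all 21 unperfused and 73 of the 82 perfused nuclei with an SLC5A8 UMI were in cluster 11. In that cluster 15.5% and 5.81% of all thinned nuclei had an SLC5A12 UMI, against 15.5% and 13.5% of EC nuclei. The SLC5A12 gap thus repeats the difference between clusters, and it does not show that the 2 carriers exclude each other within a cluster.

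Between the libraries, the PT level was lower in the perfused library for 6 carriers and higher for SLC7A8 and SLC5A8. Of the 10629 genes with at least 100 UMIs in PT, 44.1% were higher in the perfused library. The log2 of perfused CPM over unperfused CPM was −0.47 for SLC5A2 (−0.60 to −0.35), −0.25 for SLC5A12, −0.22 for SLC2A2, −0.19 for SLC4A4, −0.16 for SLC34A1 and −0.15 for SLC13A3. It was 0.11 for SLC7A8 (0.08 to 0.14) and 1.97 for SLC5A8 (1.70 to 2.25). All 8 intervals lay off 0, but they hold no variation between animals or libraries. The share of all genes with such intervals was not counted. The intervals also leave out the choice of scaling: SLC13A3 stood at −0.06 with TMM and at −0.05 with DESeq2 factors. Only SLC5A8 passed a 1.5-fold difference, where 2.57% of the 10629 genes were past it upward and 9.44% downward. The median ratio was −0.17 over the 8 carriers and −0.04 over all genes. Between 12.7% (for SLC5A2) and 35.8% (for SLC13A3) of the genes had lower ratios than the 6 lower carriers.

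The makeup of PT differed between the libraries, since cluster 11 had 3.95% of the unperfused PT nuclei and 12.7% of the perfused. SLC5A8 went from 13.7 to 53.8 CPM over all PT but from 301 to 371 CPM within cluster 11, a log2 ratio of 0.30 (0.03 to 0.59). With the 3 clusters weighted equally in both libraries its log2 ratio was 0.34, and no carrier passed 1.5-fold. In cluster 4 the number of SLC5A8 UMIs was 4 and 25, from 2 and 13 nuclei. Without cluster 11, an alternative added after the data were seen, the ratios were −0.32 for SLC5A2, −0.10 for SLC2A2, −0.11 for SLC5A12, −0.15 for SLC34A1, −0.08 for SLC4A4 and −0.02 for SLC13A3, and 0.25 for SLC7A8. SLC5A8 then had a ratio of 2.38, still past 1.5-fold, at the few UMIs of clusters 0 and 4.

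Within cluster 0, SLC7A8 was higher in the perfused library, 2321 against 2808 CPM, with a log2 ratio of 0.27 (0.24 to 0.31). None of the 7 carriers with at least 100 UMIs there passed 1.5-fold (1.53% of the genes upward and 8.31% downward). SLC13A3 and SLC2A2 had ratios of −0.02 and −0.05 with intervals that held 0. Within cluster 4 all 7 carriers tested had ratios below 0, while 45.1% of the genes were above 0. For SLC7A8 (−0.06) and SLC13A3 (−0.05) the intervals held 0. The ratios of SLC5A2 (−0.44), SLC2A2 (−0.42), SLC5A12 (−0.38) and SLC34A1 (−0.22) were lower than in cluster 0 (−0.29, −0.05, −0.08 and −0.12). For SLC5A2 and SLC34A1 the intervals of the 2 clusters overlapped. Whether these differences exceed the variation between animals was not tested. Again none of 7 passed 1.5-fold, against 2.39% of the genes upward and 7.52% downward. Within cluster 11, SLC34A1 (−0.02) and SLC4A4 (0.04) had intervals that held 0. SLC5A12 had a ratio of −1.26 there (56 and 66 UMIs), the only one of 6 past 1.5-fold, against 4.49% of genes upward and 4.46% downward. Its level there, 123 and 51.3 CPM, was near or below its EC level of 101 and 81.0 CPM. The loop of Henle gene SLC12A1 stood at 448 and 115 CPM in the same cluster, and its part in the SLC5A12 ratio was not tested.

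In PT_INJ none of 7 carriers passed 1.5-fold, against 4.96% of genes upward and 4.72% downward. SLC34A1 had the lowest ratio there, −0.49 (−0.80 to −0.19), and SLC7A8 the highest, 0.31 (0.08 to 0.54). The other 5 intervals held 0.

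**Figure D4:**
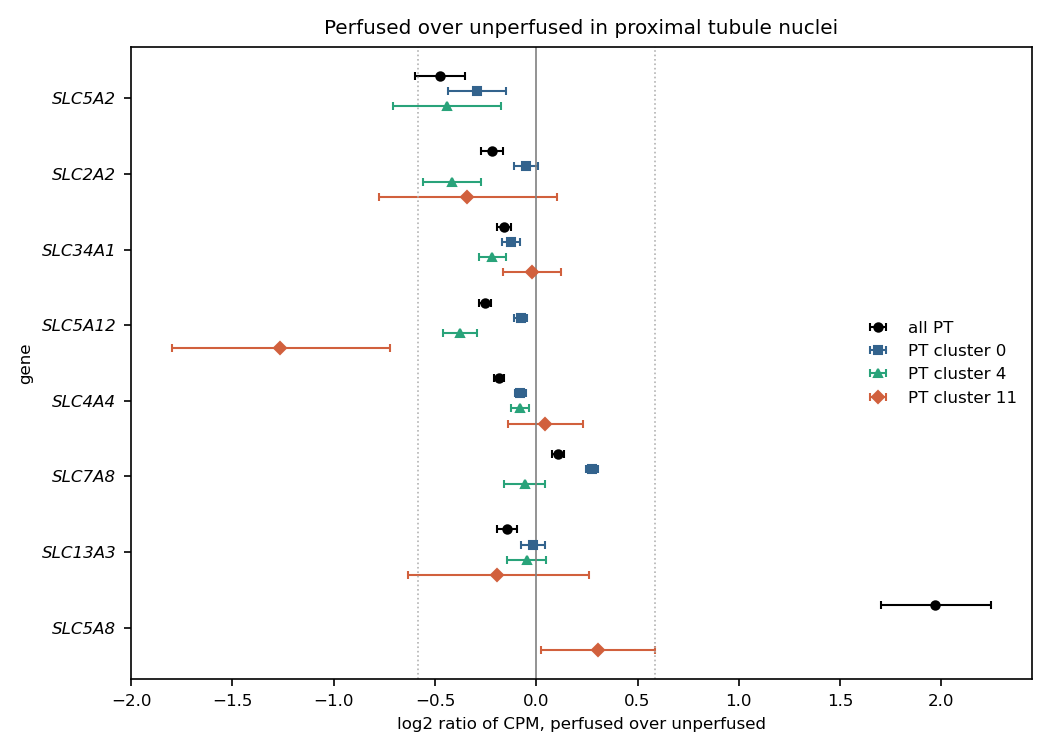
Log2 of perfused CPM over unperfused CPM for each carrier, in all PT nuclei and within PT clusters 0, 4 and 11, with 95% conditional binomial intervals; dotted lines mark 1.5-fold and genes under 100 UMIs in a group are left out. SLC5A8 stands at 1.97 over all PT and at 0.30 within cluster 11, and the other carriers of clusters 0 and 4 lie between the dotted lines.

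The SLC5A2 ratio stood beside the difference in its level outside the tubule. After subtracting the EC level of each library, an alternative added after the data were seen, SLC5A2 in PT was 84.8 CPM unperfused and 84.8 CPM perfused. In clusters 0 and 4 it was then 97.6 and 69.4 CPM unperfused and 108 and 75.7 CPM perfused, above rather than below. These values hold for the EC level alone, since the level of no other class was subtracted. In the unperfused library EC, at 41.8 CPM, ranked 5 of the 13 classes. Immune nuclei stood higher, at 63.3 CPM, and loop of Henle nuclei lower, at 15.7 CPM. PT cluster 11 itself stood below EC, at 19.8 CPM. In the perfused library loop of Henle nuclei stood at 6.26 CPM and EC at 6.34 CPM. The other 7 carriers kept the sign of their PT ratio under the EC subtraction, with SLC5A12 at −0.25 and SLC4A4 at −0.19. Subtracting a free RNA profile made from the whole library, in contrast, left SLC5A2 between the same bounds as the other alternatives, which ran from −0.52 to −0.32. Over all nuclei SLC5A2 stood at 67.1 CPM unperfused and 40.4 CPM perfused, and free RNA was estimated at 9.01% and 4.99% of the PT UMIs. The profile could therefore take little from the PT levels. The source of the SLC5A2 UMIs in EC was not tested.

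Outside the proximal tubule, SLC4A4 was high in a small cluster of the loop of Henle class (LOH). Cluster 16 held 101 unperfused and 69 perfused nuclei and expressed SLC12A1, the NKCC2 cotransporter that defines the thick ascending limb, at 4667 and 5293 CPM. SLC4A4 stood there at 3478 and 2302 CPM, against 61.2 and 47.8 CPM in the larger LOH cluster 2. The unperfused level (3327 to 3634) was above that of PT cluster 0, and the perfused level was below those of PT clusters 0 and 4 and above that of cluster 11. The PT receptors LRP2 and CUBN stood at 50.6 and 73.3 CPM in cluster 16 of the unperfused library, against 3503 and 5013 CPM in PT cluster 0. The other 7 carriers were at no more than 45.4 CPM there.

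The nuclei of cluster 16 fell apart by SLC4A4: 92 of 170 had at most 1 UMI of it, 2 had 2 to 4, and 76 had 5 or more, with a median of 37.5. The cut at 5 UMIs was chosen after these values were seen, so the SLC4A4 levels on either side of it are a description. The 76 nuclei comprised 51 of 101 unperfused (50.5%, interval 40.4 to 60.6%) and 25 of 69 perfused nuclei (36.2%, 24.99 to 48.7%). Their SLC4A4 level was 6604 CPM unperfused and 6603 CPM perfused. The whole cluster had a lower SLC4A4 level in the perfused library (log2 ratio −0.60). The share of such nuclei was also lower there, but the intervals of the 2 shares overlapped. Whether the share accounts for the level was not tested. Cluster 16 itself was 13.5% of the unperfused and 8.57% of the perfused LOH nuclei. For the LOH class as a whole the SLC4A4 log2 ratio was −1.16 (−1.25 to −1.06).

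**Figure D5:**
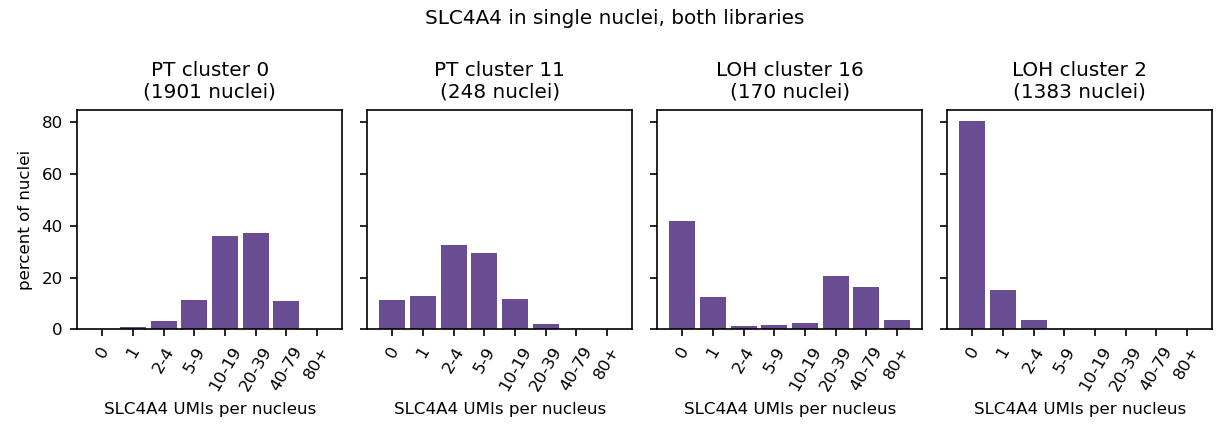
SLC4A4 UMIs per nucleus in PT clusters 0 and 11 and LOH clusters 16 and 2, libraries pooled; the x axis gives ranges of UMIs and the y axis the percent of the cluster's nuclei. PT cluster 0 has a single hump, whereas cluster 16 has 92 nuclei at 0 or 1 UMI and 76 at 5 or more with only 2 between.

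The 76 nuclei differed from the other 94 of cluster 16 in further genes, with the libraries pooled. CA2, the cytosolic carbonic anhydrase that makes bicarbonate from carbon dioxide and is in the list of bicarbonate genes, stood at 317 against 4.80 CPM, in 56 of 76 against 3 of 94 nuclei, and at 16.4 CPM in PT. AHCYL2, a relative of the NBCe1-binding protein IRBIT, stood at 1599 against 33.6 CPM, and SCN9A, SORCS3 and LHX1 at 433, 307 and 171 against 6.40, 0 and 6.40 CPM. These 4 genes were picked after their values were seen. Among the fixed LOH markers CLDN16, a tight junction protein for magnesium and calcium, stood at 59.8 against 1081 CPM. UMOD stood at 515 against 2140 CPM, EGF at 416 against 1812 CPM and SLC12A1 at 3363 against 6217 CPM. KCNJ1 was alike at 105 and 117 CPM.

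Lower levels of 2 carriers were seen in the distal nephron. SLC4A4 in principal cells (PC) of the collecting duct stood at 288 and 254 CPM. After thinning, 35.3% of 167 unperfused and 36.4% of 143 perfused PC nuclei had a UMI, against 16.2% and 15.2% of EC nuclei. SLC7A8 in the connecting tubule (CNT) stood at 167 and 215 CPM, with 24.9% of 482 and 25.2% of 218 thinned nuclei against 9.06% and 8.29% in EC; SLC5A12 in CNT was at 9.54% and 5.96%, under its EC shares of 15.5% and 13.5%. The immune, stromal and cycling classes held more of some carriers than EC did. SLC5A12 stood at 267 and 183 CPM in immune, at 194 and 77.7 CPM in stromal and at 311 and 248 CPM in cycling nuclei, against 101 and 81.0 CPM in EC, which in the stromal class held for the unperfused library alone. From the levels of endothelial, loop of Henle and immune markers outside their own class, free RNA was estimated at 78.1% and 64.3% of the UMIs of the immune, 48.6% and 44.3% of the stromal, 55.6% and 50.4% of the cycling and 22.6% and 13.1% of the EC nuclei. Mixed nuclei add to the same estimate, and their part in these levels was not tested. Over all nuclei SLC5A12 stood at 894 CPM unperfused and 674 CPM perfused. Free RNA of that makeup, at the estimated shares, would put SLC5A12 above its counted level in each of these classes. This did not hold for SLC5A2, which stood at 67.1 CPM over all unperfused nuclei. At the same shares it would lie below its counted level in unperfused EC (41.8 CPM) and immune nuclei (63.3 CPM). In unperfused stromal nuclei (28.3 CPM) it would lie above. Whether the estimated shares or the assumed makeup are off was not tested.

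The other genes of these pathways were compared by lists. Of 70 listed genes 64 were in the files and 57 had at least 100 UMIs in PT. Their median log2 ratio was 0.05, against −0.04 for all genes, with 2 genes past 1.5-fold upward and 1 downward, where the shares of the 10629 genes were 2.57% and 9.44%. SLC13A2 (NaDC1), the brush-border dicarboxylate carrier, went from 117 to 238 CPM (1.03), and SLC6A18, a brush-border amino acid carrier, from 89.5 to 160 CPM (0.83). Both were highest in cluster 11, at 892 and 492 CPM, as SLC5A8 was. CA2 was the gene past the fold downward, at 19.5 and 12.9 CPM.

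Of the 10629 genes, 44.1% had a ratio above 0. By list, all 7 sugar carriers tested did, with a median of 0.33 and none past 1.5-fold. Of these 7, 4 were highest in cluster 11 among the PT clusters, as 40.2% of all genes were, the cluster with 3.95% of the unperfused and 12.7% of the perfused PT nuclei. They included SLC5A1 (SGLT1), the high-affinity glucose cotransporter of the late tubule, with 155 and 196 CPM, SLC5A10 (0.39) and the inositol carrier SLC5A11 (0.33). SLC5A1 stood at 158, 173 and 307 CPM in clusters 0, 4 and 11, highest in the cluster where SLC5A2 was lowest. Its levels in clusters 0 and 4 lay close together, and no interval is given for them. Of 4 phosphate carriers 3 were higher in the perfused library, among them XPR1, the phosphate exporter (0.17), and SLC20A1 (0.45), while SLC34A3 stood at −0.10. These 3 were likewise highest in cluster 11 among the PT clusters, and SLC34A3 in cluster 0. Bicarbonate and proton handling had 4 of 9 above 0 and a median of −0.02: CA12 (0.01) was near 0, SLC9A8 stood at 0.05 and SLC9A3 (NHE3), the main proton exchanger of the brush border, at 0.11.

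The amino acid carriers had 8 of 14 above 0 and a median of 0.02, with SLC7A13 at −0.05 and SLC7A7, a basolateral light chain like LAT2, at 0.21. Mono- and dicarboxylate and sulfate carriers had 2 of 7 above 0 and a median of −0.07, with SLC16A9 at −0.07 and the sulfate carrier SLC13A1 at −0.16. The partners and regulators had 8 of 12 above 0 and a median of 0.08. Among them PDZK1, a scaffold that binds NaPi-IIa, stood at 0.03, and the transcription factors HNF4A and PPARA at −0.06 and 0.22. The 4 genes of endocytosis, LRP2, CUBN, DAB2 and AMN, stood between 0.05 and 0.20.

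Across the 20 clusters of at least 50 nuclei, the genes whose log2 levels followed each carrier most closely were compared. For SLC34A1 they were SLC34A3, the other renal phosphate cotransporter (Pearson r 0.99), G6PC1 and FTCD. For SLC5A12 they included SLC22A6 and SLC22A8, carriers of organic anions (0.97 and 0.96). For SLC5A2 they were TF, SLC6A19 and SLC7A8 (0.92 to 0.93), and for SLC7A8 they were SLC5A2, TF and CACNA1I. For SLC2A2 they were IGSF11, GBA3 and SLC25A45 (0.97), for SLC13A3 DPYS, SLC7A13 and SLC51B, and for SLC5A8 UNC93A, BRINP1 and ETNPPL (0.92 to 0.96). SLC4A4 had the lowest first value, 0.86 for GLIS1, followed by HHLA2 and ASS1; GLIS1 stood at 163 CPM in the 76 nuclei of cluster 16 and at 4.80 CPM in the other 94. These correlations are over 11029 genes and over clusters that share libraries, depth and free RNA, and are descriptions.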

How the data were processed

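Nuclei were isolated from pig renal cortex for droplet RNA sequencing, with 1 library from unperfused and 1 from perfused tissue. The authors aligned the reads with Cell Ranger 5.0.1 to the pig genome of Ensembl release 103 and deposited raw UMI counts, not normalized, for every gene in every barcode. These count matrices were the only values used; how depth per gene depends on transcript length was not corrected. Counting of intronic reads and of genes that share sequence or overlap follows the deposited counts.

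Kept barcodes had 500 to 6000 genes and no more than 7% of UMIs from mitochondria. Doublets found with Scrublet (scanpy 1.11.5; 9.12% and 8.27%) were removed. SoupX was not run. The libraries were integrated in Seurat 5.3.0 (R 4.3.3) with 2000 variable genes and 30 dimensions, without 74 carrier and partner genes, and clustered on 15 components at a resolution of 0.5. Clusters were named from 14 marker lists (128 of 134 genes in the files): the list whose mean log2 fold (offset 5 CPM) was highest gave the name where at least 3 markers had a log2 fold over 1 and were seen in 10% of nuclei. The thresholds of this rule came from an earlier analysis of the same data. Missing symbols were filled in for 811 rows from a table of identifiers. Thus 19 of the 21 clusters were named, and 2 were not.

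UMIs were summed per class or cluster and library and given as CPM. Ratios needed at least 100 UMIs over both libraries to enter counts, and 1.5-fold was the threshold for counting genes. For ratios alone, a count of 0 was set to 3, with no ratio where the other count was 3 or lower; levels are printed as counted. The study's Wilcoxon test over nuclei was not used, because nuclei are not replicates. The interval code was tested on simulated counts. Alternatives covered clustering, doublets, filters, scaling by edgeR 4.0.16 (TMM) and DESeq2 1.42.0, makeup of PT, free RNA and thinning. The genes named were the 8 carriers, at most 4 genes of each list by UMIs in PT or fold, the 3 genes most like each carrier among those with at least 200 UMIs, and the leading genes of PT clusters. The carriers, lists and rules were chosen with earlier results of these data known. Promoter and protein sequences and genome positions were not analysed here. Some genes that the rule would name are not reported here.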

Additional observations from a re-analysis of the deposited data

Results flagged for a closer look

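SLC7A8 had PT, PT_INJ and CNT ratios above 0 and a PC ratio below 0, with all 4 intervals off 0: log2 ratios of 0.11, 0.31, 0.37 and −0.89. Within PT its ratio was 0.27 in cluster 0 and −0.06 (−0.16 to 0.04) in cluster 4. In EC it was 0.30 (−0.04 to 0.65). The PC value rests on 65 and 39 UMIs. SLC5A12 (−1.32), SLC34A1 (−0.90) and SLC5A2 (−1.91) also had PC ratios below 0 with intervals off 0, each from under 100 UMIs. The PC intervals of SLC4A4, SLC13A3 and SLC2A2 held 0. In perfused PC, SLC7A8 stood at 47.6 CPM, below its EC level of 67.8 CPM but with overlapping intervals. In unperfused PC it was above its EC level. The difference between the classes was not tested.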

How the results depend on the processing

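Without replicates, values were compared only with their counting error, and a library or animal effect cannot be separated from perfusion. No paired analysis was possible because each condition has 1 library. All 8 carriers were highest in PT, and 7 had a range over 4-fold over PT clusters, in each of the clusterings tried except with doublets kept, where the counts were 7 and 6; with free RNA subtracted 7 were highest in PT. In the 13 alternatives that gave PT ratios, other than the EC subtraction, the sign of each of the 8 was the same. The median ratio of the carriers, −0.17, was −0.091 with TMM factors, −0.076 with DESeq2 size factors, −0.10 with PT clusters weighted equally, −0.20 with free RNA subtracted and −0.091 without cluster 11. TMM raised every ratio by 0.08 and DESeq2 by 0.10. Weighting clusters equally left 0 carriers past 1.5-fold, since SLC5A8 then stood at 0.34. The share of genes past 1.5-fold was 4.82% upward and 17.3% downward with at least 20 UMIs, and 8.02% and 24.7% with no filter. Thinned to 4000 UMIs, SLC5A12 was seen in 94.7% of unperfused and 87.7% of perfused PT nuclei without an SLC5A8 UMI and in 15.6% and 20% of nuclei with one. Of the listed genes, 1 was past 2-fold upward and 0 downward, and 4 were past 1.5-fold downward with at least 20 UMIs. Cluster 16 joined a larger LOH cluster at resolutions 0.3 and 1.0, where SLC4A4 stood at 437 and 1028 CPM, and stood at 2539 to 2886 CPM in the other clusterings. SLC5A2 in cluster 11, with 12 UMIs, and SLC5A8 outside it are limited by depth.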
